A study of Mus musculus with 6 samples.

Results

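The genes described here are 36 mouse genes of the cell division cycle, measured in the liver of mice that lack S1P lyase and of WT mice. The list was drawn up by gene name and falls into 11 replication members, 20 mitosis members and 5 G1 cyclins. Members were read through every probe set, meaning a group of short probes against 1 transcript region, to which the platform annotation gave that symbol and no other. This found 87 of the 45101 probe sets of the array, for 35 of the 36 genes; Ccnb1 had none. The probe sets of 30 genes were bright enough to test, among 13370 genes tested in all.

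The series holds 6 Affymetrix mouse expression arrays, each hybridised with liver RNA of 1 mouse. The knockout group is 3 mice with the sphingosine-1-phosphate lyase knock-out genotype, and the WT group is 3 mice. Mice of both genotypes are of a mixed C57BL6 and 129sv strain and received no treatment. The labels give no age, sex, litter or batch, and do not say how the gene was disrupted or whether it was disrupted in every tissue. S1P lyase, encoded by Sgpl1, breaks down the signalling lipid sphingosine-1-phosphate.

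A dividing cell first builds up the enzymes that make deoxynucleotides and the MCM helicase that unwinds DNA, copies its genome, and then makes cyclins, kinases and motor proteins that condense and separate the chromosomes. D and E cyclins act before replication by driving the kinases that inactivate the retinoblastoma protein and so free E2F factors, which switch on replication genes. Many mitosis genes are instead switched on late, through promoters that carry CCAAT boxes bound by NF-Y and a CHR element bound by the DREAM and MuvB complexes. In an adult liver at rest few hepatocytes divide, so that transcripts of this group are usually low; blood cell precursors are among the cells that divide most.

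The promoter stretches below show the motifs of these classes. The first 4 belong to mitosis members that rose in the knockout livers, and the last is the replication member with the most E2F matches. Each runs 5′ to 3′ along the gene, from 250 bases before the annotated start to 10 after it, as given by RefSeq for the mouse build GRCm38.p6. Capitals mark the matches to 3 motifs on either strand: CCAAT, the CHR letters TTTGAA, and the E2F letters TTTCCCGC, TTTGGCGC or TTTCGCGC. Matches of the E2F letters can overlap each other.
Mki67, chr7:135716370-135716629, minus strand: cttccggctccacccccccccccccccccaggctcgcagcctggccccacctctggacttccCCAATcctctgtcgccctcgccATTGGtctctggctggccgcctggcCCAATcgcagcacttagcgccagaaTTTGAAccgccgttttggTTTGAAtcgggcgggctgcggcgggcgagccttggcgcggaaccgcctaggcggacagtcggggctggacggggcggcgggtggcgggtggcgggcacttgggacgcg
Top2a, chr11:99024180-99024439, minus strand: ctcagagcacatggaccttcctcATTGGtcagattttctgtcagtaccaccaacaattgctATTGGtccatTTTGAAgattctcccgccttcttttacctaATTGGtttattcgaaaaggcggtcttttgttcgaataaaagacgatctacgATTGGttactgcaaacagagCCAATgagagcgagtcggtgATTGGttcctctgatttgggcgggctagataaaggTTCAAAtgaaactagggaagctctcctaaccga
Ccnb2, chr9:70421545-70421804, minus strand: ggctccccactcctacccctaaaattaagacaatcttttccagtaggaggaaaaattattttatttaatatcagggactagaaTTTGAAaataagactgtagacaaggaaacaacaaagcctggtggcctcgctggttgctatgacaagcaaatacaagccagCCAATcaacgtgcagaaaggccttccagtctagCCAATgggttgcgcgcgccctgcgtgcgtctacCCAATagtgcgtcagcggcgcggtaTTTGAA
Nusap1, chr2:119618048-119618307, plus strand: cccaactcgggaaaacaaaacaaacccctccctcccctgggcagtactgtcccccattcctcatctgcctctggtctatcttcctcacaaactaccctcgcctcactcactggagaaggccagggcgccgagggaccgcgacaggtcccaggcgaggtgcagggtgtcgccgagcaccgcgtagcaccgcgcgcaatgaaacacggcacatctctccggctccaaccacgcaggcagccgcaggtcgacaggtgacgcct
Mcm6, chr1:128359696-128359955, minus strand: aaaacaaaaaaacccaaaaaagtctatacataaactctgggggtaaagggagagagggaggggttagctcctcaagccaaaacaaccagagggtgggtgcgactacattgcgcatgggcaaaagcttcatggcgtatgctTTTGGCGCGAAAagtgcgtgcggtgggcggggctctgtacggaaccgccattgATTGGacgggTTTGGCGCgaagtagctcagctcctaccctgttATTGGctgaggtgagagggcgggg

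The Ccnb2 stretch holds 3 CCAAT matches, 1 CHR match upstream and another just after the start. The Top2a stretch holds 6 CCAAT and 2 CHR matches, and the Mki67 stretch 3 CCAAT and 2 CHR matches. Nusap1 holds no match to any of the 3 motifs. Mcm6 holds 3 E2F and 2 CCAAT matches and no CHR match.

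In windows reaching 50 bases past the start, 27 of the 36 members could be matched to a RefSeq promoter. CCAAT was found in 13 of the 15 mitosis genes with a window (86.7%) and in 8 of the 10 replication genes (80.0%), against 41.1% of the 27025 genes with a promoter window. The CHR letters were found in 10 of 15 mitosis genes (66.7%) and in 1 of 10 replication genes, Mcm2, against 20.2% of all genes. E2F letters were found in 4 of 10 replication genes (40%), namely Mcm3, Mcm5, Mcm6 and Mcm7, and in 1 of 15 mitosis genes, Cdk1, against 2.12% of all genes. These are matches of letters and not measured binding. Plk1, the remaining mitosis member that rose, had 1 CCAAT match and 1 CHR match, the latter 31 bases into the transcript. The same pair of motifs also lay in Cdk1, Cdc20, Aurka, Bub1b, Prc1 and Kif11, which did not pass the gene-level test.

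**Figure D1:**
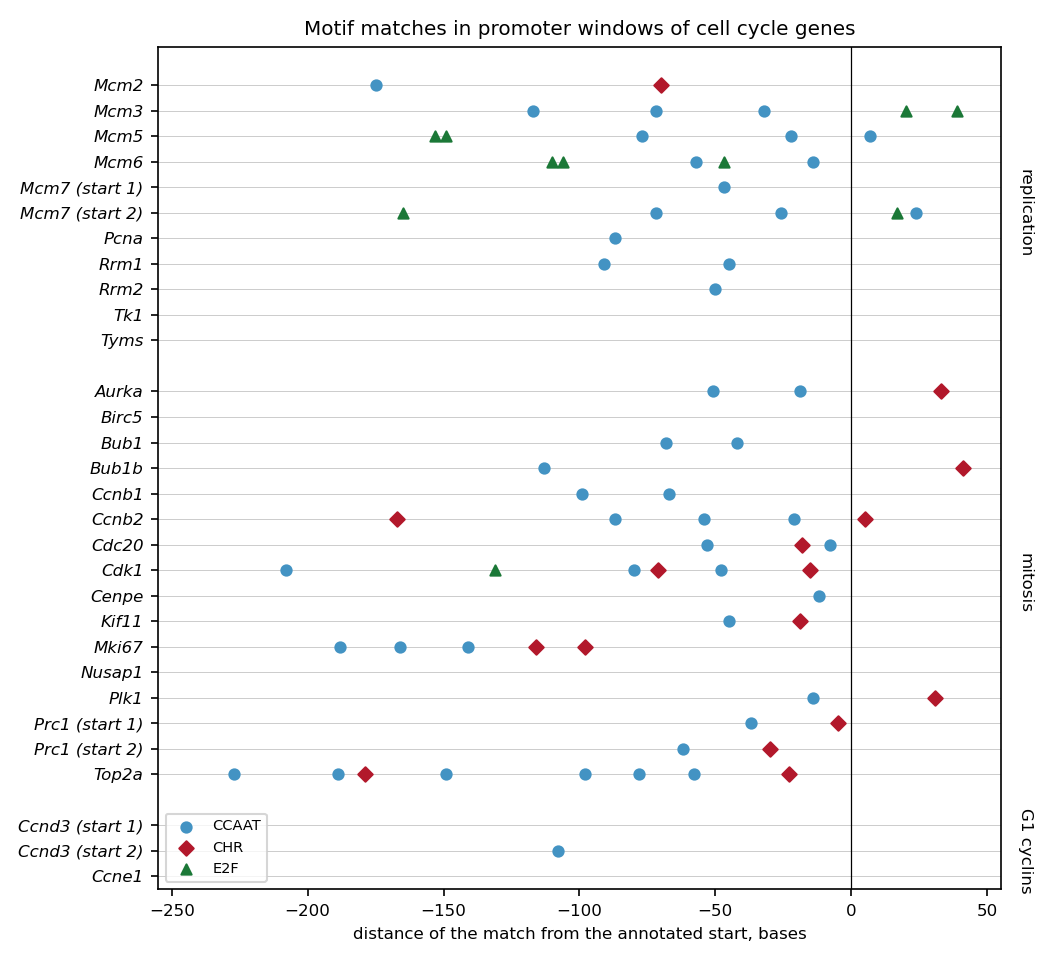
Position of each match to the CCAAT, CHR and E2F letters in the promoter windows of the members, in bases from the annotated start (0 on the horizontal axis), 1 row per window. CHR matches sit in mitosis rows apart from Mcm2, and E2F matches in replication rows apart from Cdk1.

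The targeted gene bore out the genotype labels. Sgpl1 read 2.46, 2.99 and 2.87 on the log2 scale in knockout replicates 1 to 3, and 6.65, 6.90 and 6.71 in WT replicates 1 to 3. The difference was -3.98 (SE 0.16, n = 3 per group, limma adjusted p = 1.5e-05), or 15.7-fold lower in the knockout. All values here are the deposited log2 signals, differences are knockout minus WT, and a gene was called changed where its p, adjusted by Benjamini-Hochberg for the 13370 genes tested, was under 0.05. The 3 animals per group limit the precision. The p-values set each difference against the spread between these animals, which limma partly pools over genes of like signal.

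Control features of the arrays differed between the groups and are given first. The difference between the 3′ and 5′ probe sets of Actb, a measure that grows as RNA breaks down or is copied less fully, was 1.45, 1.42 and 1.12 in knockout replicates 1 to 3 and 0.97, 0.81 and 0.87 in WT. For Gapdh it was 0.54, 0.57 and 0.25 against 0.07, -0.06 and -0.05. The bacterial poly-A control transcripts averaged 9.07, 8.75 and 8.52 in the knockout arrays and 8.01, 7.99 and 8.08 in the WT arrays. Knockout replicate 3 lay between the other knockout arrays and the WT arrays on each of these, and each knockout array exceeded every WT array (exact two-sided permutation p = 0.1, the smallest that 3 against 3 can give).

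On the deposited scale, 5 mitosis members and 1 G1 cyclin rose in the knockout livers, and no replication member passed the test. Of the 30 tested genes, 6 were called higher and 0 lower, which is 20.0% against 10.5% called higher and 8.09% called lower among all genes. The 6 were Mki67, Top2a, Ccnb2, Nusap1 and Plk1 of the mitosis class and Ccnd3 of the G1 cyclins. Of the 30, 25 had a positive difference, against 44.4% of all genes. The members' median difference was 0.41, against -0.05 over all genes. In 13 members (43.3%) the 3 knockout arrays exceeded all WT arrays, against 19.0% of all genes, and in 3 they were all below, against 21.8%. Liver is a mixture of cell types, and more cells of a dividing type cannot be told apart here from more RNA per cell.

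**Figure D2:**
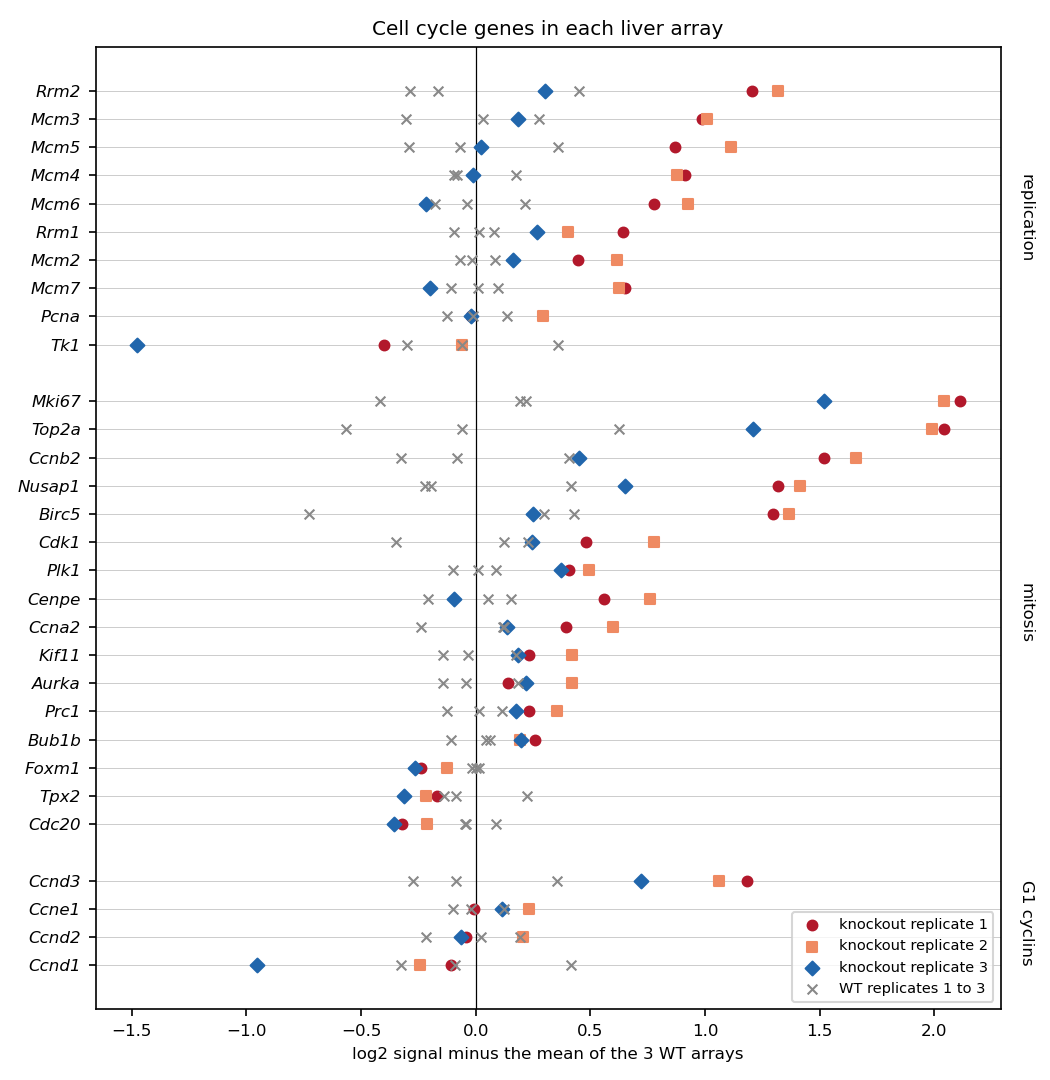
Log2 signal of each tested member minus the mean of its 3 WT arrays (horizontal axis), 1 point per array, by class. All 3 knockout points of Mki67 and of Top2a lie to the right of their WT crosses. In 8 of the 10 replication members knockout replicates 1 and 2 lie to the right of every WT cross, and in 6 of these 8 knockout replicate 3 does not.

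Of the 16 mitosis members tested, 5 rose (31.2%), 0 fell and 11 did not pass, with a median difference of 0.39. Mki67, which codes for the Ki-67 protein that coats chromosomes of dividing cells and is the usual tissue marker of proliferation, read 7.74, 7.67 and 7.15 in the knockout arrays and 5.21, 5.85 and 5.82 in WT. The groups stood well apart, and the difference of 1.89 (SE 0.22, limma adjusted p = 0.00133) is 3.71-fold. Top2a, the topoisomerase that untangles newly copied chromosomes, read 6.84, 6.79 and 6.01 against 4.23, 5.43 and 4.74. It was 1.75 higher (SE 0.33, limma adjusted p = 0.00914), or 3.35-fold, with no overlap between groups. A dimmer tested probe set of Top2a differed by 0.17 (SE 0.16, limma adjusted p = 0.482) with overlapping groups. Its remaining probe set, too dim to test, differed by -0.18. In the fit per gene, Mki67 and Top2a were also called higher under each of the 15 alternative settings tried.

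Nusap1, a protein that bundles spindle microtubules near chromosomes, read 5.57, 5.67 and 4.90 in the knockout and 4.05, 4.66 and 4.03 in WT. Every knockout array lay above every WT array, with a difference of 1.13 (SE 0.24, limma adjusted p = 0.0166). Ccnb2, a B cyclin that activates Cdk1 for entry into mitosis, read 5.89, 6.03 and 4.82 against 4.05, 4.29 and 4.78. Its difference was 1.21 (SE 0.32, limma adjusted p = 0.0367), but knockout replicate 3 lay only just above WT replicate 3. Plk1, the polo-like kinase of mitotic entry and spindle assembly, read 5.44, 5.52 and 5.40 against 4.93, 5.04 and 5.12. This was the smallest called change among the mitosis members, at 0.42 (SE 0.11, limma adjusted p = 0.0311) or 1.34-fold, with a small spread within each group, and its sign turned to -0.33 with arrays centred on poly-A controls. The calls of Ccnb2, Nusap1 and Plk1 were lost when knockout replicate 1, knockout replicate 2 or WT replicate 1 was left out. Those of Ccnb2 and Plk1 were also lost without WT replicate 2, and that of Plk1 without knockout replicate 3 and with arrays centred on hepatocyte markers (0.51, limma adjusted p = 0.0622).

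Birc5, which codes for survivin of the chromosomal passenger complex, had a large difference that did not pass. It read 6.01, 6.08 and 4.96 in the knockout and 3.98, 5.01 and 5.14 in WT, and so differed by 0.97 (SE 0.38, limma adjusted p = 0.11). Knockout replicate 3 lay among the WT arrays. Cdk1, the kinase that drives mitosis, read 6.57, 6.86 and 6.33 against 5.74, 6.21 and 6.32, and so differed by 0.50 (SE 0.19, limma adjusted p = 0.11). Cenpe, a kinetochore motor, read 4.42, 4.62 and 3.76 against 3.65, 3.91 and 4.01, and so differed by 0.41 (SE 0.22, limma adjusted p = 0.221). In this gene too, knockout replicates 1 and 2 were high and knockout replicate 3 was not.

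Smaller positive differences that did not pass were those of Ccna2, the cyclin of S phase and early mitosis (0.38), Kif11, a motor that pushes spindle poles apart (0.28), and Aurka, a kinase of the spindle poles (0.26). Prc1, which bundles the microtubules of the central spindle, differed by 0.26, and Bub1b, a checkpoint kinase that holds back anaphase, by 0.22. The groups did not overlap in these genes, other than Aurka. Negative differences that did not pass were those of Cdc20, the activator of the anaphase-promoting complex (-0.30, limma adjusted p = 0.0962), Foxm1, a transcription factor of mitosis genes (-0.21, limma adjusted p = 0.187), and Tpx2, a spindle assembly factor (-0.23, limma adjusted p = 0.232). In these 3 genes every knockout array read lower than every WT array by the brightest probe set. The other tested probe sets of Tpx2 differed by -0.35 and 0.30, the latter with every knockout array above every WT array. Those of Foxm1 differed by -0.19 and 0.03 with overlapping groups. The direction of Tpx2 is therefore not settled by these arrays.

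**Figure D3:**
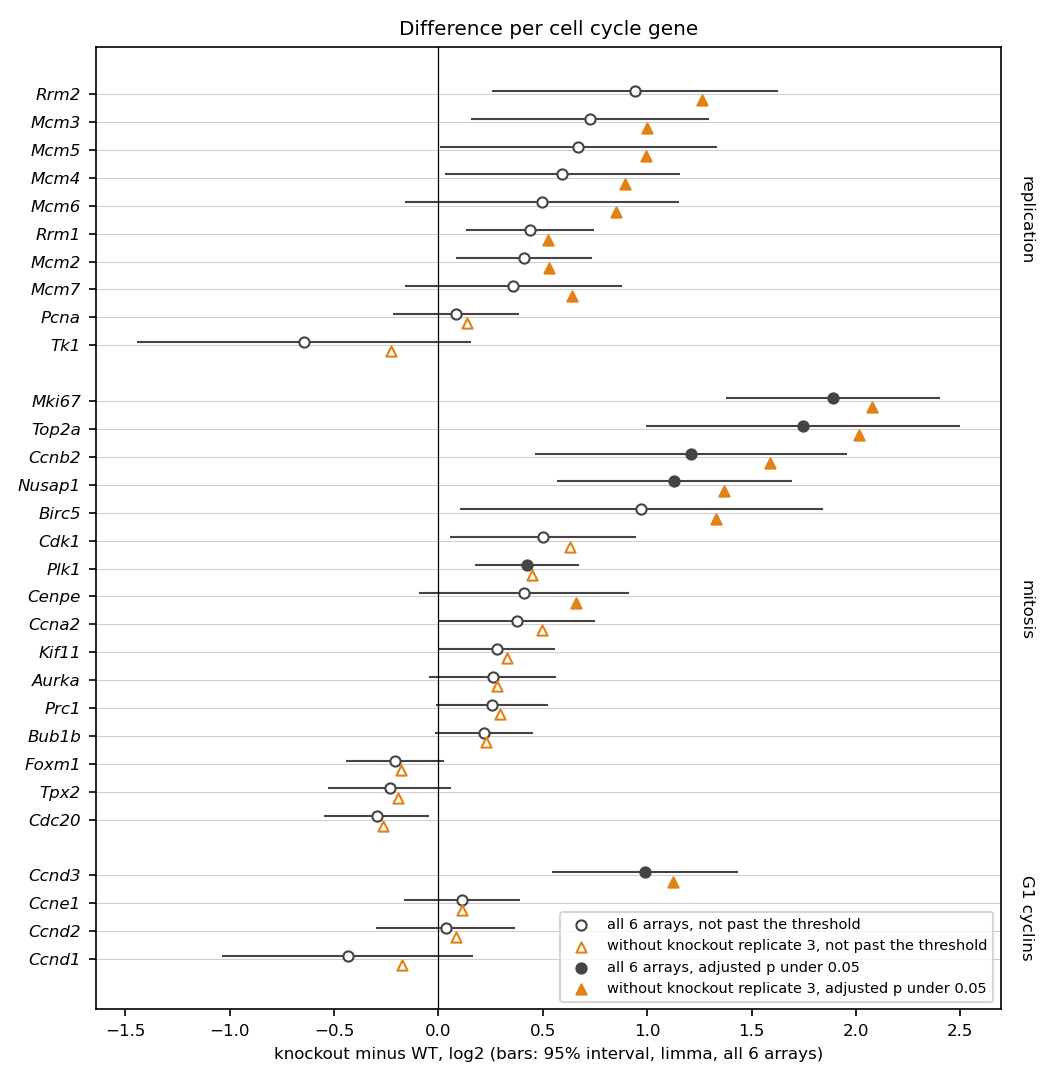
Knockout minus WT difference of each tested member in log2 units (horizontal axis); circles are the fit on all 6 arrays with 95% intervals from limma, triangles the fit without knockout replicate 3, and filled symbols passed an adjusted p of 0.05. Mki67 and Top2a lead at 1.89 and 1.75; triangles are filled in 8 replication members whose circles are open.

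Of the 10 replication members tested, 0 were called in either direction. Without an adjustment the limma p was under 0.05 in 6 of them. That count is not set here against the share of all genes, of which 18.6% passed even the adjusted threshold. Their median difference was 0.47, larger than that of the mitosis members, and 9 of 10 were positive. The knockout animals differed among themselves in this class. The median over the class lay 0.713 and 0.752 above the WT mean in knockout replicates 1 and 2, and 0.0074 above it in knockout replicate 3, while the WT arrays ranged from -0.0824 to 0.156. For the mitosis members the corresponding values were 0.40 and 0.546 in knockout replicates 1 and 2 and 0.209 in knockout replicate 3, with WT arrays from -0.168 to 0.0878.

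Rrm2, the small subunit of ribonucleotide reductase, which makes deoxynucleotides, had the largest difference of the class. It read 7.55, 7.67 and 6.65 in the knockout and 6.06, 6.80 and 6.18 in WT, and so differed by 0.94 (SE 0.30, limma adjusted p = 0.0621). Knockout replicate 3 lay below WT replicate 2, so the groups overlapped. Rrm1, the large subunit, read 6.72, 6.49 and 6.35 against 5.99, 6.16 and 6.10. Its groups did not overlap, and the difference of 0.44 (SE 0.13, limma adjusted p = 0.0544) lay just outside the threshold.

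The 6 MCM genes code for the subunits of the replicative helicase. Mcm3 read 6.60, 6.62 and 5.79 in the knockout and 5.64, 5.88 and 5.30 in WT, and so differed by 0.73 (SE 0.25, limma adjusted p = 0.0773). Mcm5 read 7.01, 7.25 and 6.16 against 6.07, 6.499 and 5.85, and Mcm4 read 6.96, 6.93 and 6.04 against 5.95, 6.23 and 5.97. In all 3 genes knockout replicates 1 and 2 exceeded every WT array and knockout replicate 3 fell inside the WT range. Mcm6 read 7.85, 7.999 and 6.86 against 6.89, 7.29 and 7.04, and Mcm7 read 8.23, 8.21 and 7.38 against 7.59, 7.68 and 7.47. There knockout replicate 3 was the lowest of all 6 arrays. Mcm2 alone of the 6 had no overlap; it read 6.84, 7.01 and 6.55 against 6.32, 6.48 and 6.37 and differed by 0.41 (SE 0.14, limma adjusted p = 0.0808). The differences of Mcm4, Mcm5, Mcm6 and Mcm7 were 0.59, 0.67, 0.49 and 0.36, with limma adjusted p-values from 0.128 to 0.294.

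Pcna, the sliding clamp of DNA polymerase, read 9.09, 9.41 and 9.09 in the knockout and 8.99, 9.25 and 9.10 in WT. The groups overlapped, and the 95% interval of the difference ran from -0.22 to 0.38. Tk1, thymidine kinase of the salvage pathway, was the only replication member with a negative difference. It read 6.67, 7.01 and 5.59 against 7.42, 6.76 and 7.01, and so differed by -0.65 (SE 0.35, limma adjusted p = 0.225), and knockout replicate 3 lay far below the other 5 arrays. Tyms, thymidylate synthase, was read by 4 probe sets that lay under the dimness limit and by 1 bright probe set that the annotation shares with Tyms-ps. The shared probe set differed by -0.21 (SE 0.15, limma adjusted p = 0.34) and cannot be assigned to either.

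The same animal was low across most members. Knockout replicate 3 was the lowest knockout array in 27 of the 30 genes (90.0%), against 35.7% of all genes tested; the exceptions were Aurka, Bub1b and Ccne1. Knockout replicates 1 and 2 exceeded every WT array in 21 members (70.0%), against 23.7% of all genes. In 8 members (26.7%) they did so while knockout replicate 3 did not, against 4.67% of all genes. Of the 8, 6 were replication members. Knockout replicate 3 itself exceeded every WT array in 14 members (46.7%), against 31% of all genes. Its low place was not particular to the members. It was the lowest knockout array in 63.2% of the 106 other cell cycle genes described below, and in 79.3% of their spindle list. Among marker lists it was lowest in 6 of 7 B and plasma cell genes, but in 3 of 8 mature neutrophil genes. The 3′ to 5′ differences and the poly-A controls placed the knockout arrays in a like order, with replicate 3 nearest to WT. Their part in the result was not tested.

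Leaving out knockout replicate 3 raised the number of members called higher from 6 to 15 of 30, and left 0 called lower, against 9.34% higher and 6.24% lower of all genes in that fit. Knockout replicate 3 was the lowest knockout array in 27 of the 30, so their differences rose by construction when it was left out. The added calls are therefore not separate support for a rise. Replication members went from 0 to 8 of 10, mitosis members from 5 to 6 of 16, and the G1 cyclins stayed at 1 of 4. The 8 replication genes were Mcm2 to Mcm7, Rrm1 and Rrm2, with differences from 0.52 for Rrm1 to 1.26 for Rrm2 (limma adjusted p from 0.00734 to 0.0466). Birc5 at 1.33 and Cenpe at 0.66 were called in that fit, and Plk1 at 0.45 was not (limma adjusted p = 0.0378, 0.0297 and 0.0556). Leaving out knockout replicate 1 left 3 members called higher, knockout replicate 2 left 2, and WT replicate 1 left 3. These counts are not set here against the share of all genes called in the same fits. Each such fit holds 2 animals in 1 group.

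Of the 4 G1 cyclins tested, 1 rose and 0 fell, with a median difference of 0.07. Ccnd3, the D cyclin prominent in blood cells, read 8.26, 8.14 and 7.80 in the knockout and 6.81, 6.99 and 7.43 in WT. It rose by 0.99 (SE 0.19, limma adjusted p = 0.0109), or 1.99-fold, with no overlap; without knockout replicate 2 the limma adjusted p was 0.0512. Ccnd1, the D cyclin induced in regenerating hepatocytes, read 7.995, 7.86 and 7.15 against 7.78, 8.52 and 8.01, and so differed by -0.43 (SE 0.26, limma adjusted p = 0.273). Its groups overlapped, and its other probe sets gave -0.49 and -0.56. Ccnd2, another D cyclin, and Ccne1, the E cyclin that starts replication, differed by 0.03 and 0.11 with overlapping groups.

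Different probe sets of a gene did not always give the same reading. Of 19 members with at least 2 tested probe sets, 7 had differences of both signs. In the fit per probe set, 12 of 30 members had some probe set called higher and 1 a probe set called lower, against 12.8% and 11.6% of all genes. A gene with more probe sets has more chances of such a call. Mitosis members made up 8 of the 12, replication members 2 and G1 cyclins 2. Counted by probe set, 13 of the 62 tested were called higher and 1 lower, against 10.1% and 7.82% of all probe sets. Beside the genes already called, the members with a probe set called higher were Ccna2, Cdc20, Bub1b, Mcm2, Rrm2 and Ccnd2.

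Ccna2 was read by a pair of probe sets, and the dimmer one gave 6.41, 6.81 and 6.21 in the knockout and 5.17, 5.54 and 5.56 in WT. That probe set rose by 1.05 (SE 0.18, limma adjusted p = 0.0072), where the brighter one differed by 0.38. For Cdc20 the disagreement was in sign. Its dimmest tested probe set read 6.34, 6.22 and 5.55 against 4.41, 4.84 and 5.25 and rose by 1.20 (SE 0.26, limma adjusted p = 0.0175), while the brightest differed by -0.30 and the remaining one by 0.12. The dimmest and the brightest are of the _x_at kind, whose probes can also bind other transcripts. The direction of Cdc20 is therefore not settled by these arrays.

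Rrm1 split in the same way. Its dimmer tested probe set read 5.62, 5.73 and 5.63 in the knockout and 6.09, 6.08 and 6.17 in WT and fell by 0.46 on the log2 scale (SE 0.11, limma adjusted p = 0.0254), against 0.44 in the brighter one. Rrm2 had a probe set that rose by 0.96 (SE 0.26, limma adjusted p = 0.0378) and another that differed by 0.04. The dimmer probe set of Mcm2 rose by 0.66 (SE 0.19, limma adjusted p = 0.0494). For Bub1b, a probe set of the _s_at kind, which can bind related transcripts, rose by 0.61 (SE 0.13, limma adjusted p = 0.0155). For Ccnd2, a probe set of the same kind rose by 1.14 (SE 0.24, limma adjusted p = 0.0149), while the other 4 tested probe sets differed by 0.01 to 0.34. Ccnd3 had 2 of 3 probe sets called higher, at 0.99 and 0.83, and the other differed by -0.02. The tested probe sets of Mcm7 differed by -0.17, 0.08, 0.28 and 0.36, and those of Mcm5 by 0.18 and 0.67. The brightest probe sets of Mcm2, Mcm3 and Mcm7 are of the _s_at kind, and those of Mcm5 and Rrm2 of the _x_at kind. The sequences of the probes were not used here, so which transcripts each one reads is unknown.

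**Figure D4:**
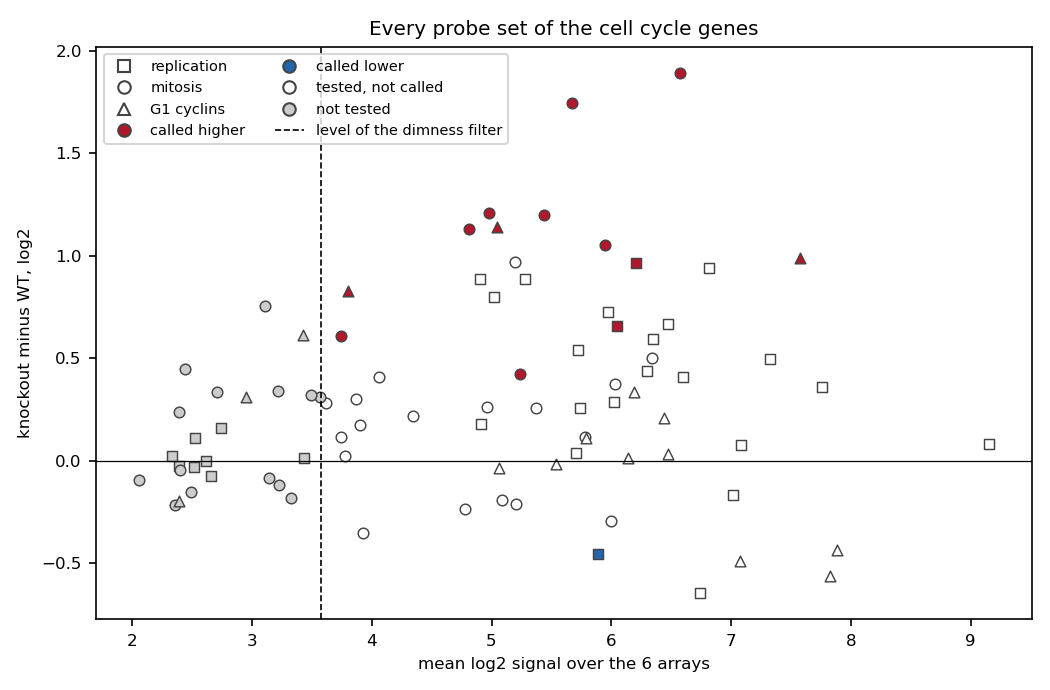
Difference between knockout and WT (vertical axis, log2) against mean log2 signal over the 6 arrays (horizontal axis) for each of the 87 member probe sets; the dashed line marks the level of 3.58 under which probe sets were not tested. Called probe sets are 13 higher and 1 lower, and the 25 grey points left of the line are dim.

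The 25 untested probe sets included all those of Tyms, Aurkb, Bub1, Kif20a and Ccne2. Bub1, a kinetochore kinase, read 3.33, 4.03 and 3.10 in the knockout and 2.73, 3.26 and 2.20 in WT by its brighter probe set. Aurkb, the kinase of the chromosomal passenger complex, read 3.64, 4.02 and 3.51 against 3.03, 3.85 and 3.36, with a mean just under the limit. Kif20a, a motor of cell cleavage, read 3.05, 3.40 and 3.70 against 3.02, 3.02 and 3.09, and Ccne2, an E cyclin, read 4.16, 4.04 and 2.99 against 2.97, 2.63 and 3.74. The groups overlapped in each of these probe sets. In a fit with no filter, 0 of the 25 were called, against 5.92% called higher and 4.56% called lower of all probe sets.

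Other genes of the cell cycle were read through 5 lists, with 106 of 123 genes tested. Of these, 13 rose (12.3%) and 3 fell (2.83%), against 10.5% and 8.09% of all genes tested, so that the share called higher was near that of all genes. Their median difference was 0.15. The list of spindle, kinetochore and condensin genes was nearest to the mitosis members, with 5 of 29 higher (17.2%, against 10.5% of all genes), 0 lower and a median of 0.35. Cdca8, a partner of survivin in the passenger complex, rose by 1.23 (limma adjusted p = 0.00149), and Incenp, its scaffold, by 0.86 (limma adjusted p = 0.0118). Smc4, a condensin subunit, rose by 0.93, and Kif22, a motor bound to chromosomes, by 0.95 (limma adjusted p = 0.00649 and 0.0135). Among 17 genes of mitotic entry and checkpoint, 2 rose (11.8%) and 1 fell (5.88%), shares near the 10.5% and 8.09% of all genes. Cdc25a, a phosphatase that activates cyclin-dependent kinases, rose by 1.53 (limma adjusted p = 0.00229), and Ube2c, which adds ubiquitin for the anaphase-promoting complex, by 1.18 (limma adjusted p = 0.0162). Ccnf, a cyclin of a ubiquitin ligase, fell by 0.83 on the log2 scale (limma adjusted p = 0.00594), and Fbxo5, an inhibitor of the anaphase-promoting complex, differed by 0.59 (limma adjusted p = 0.0664).

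Origin licensing and replication fork genes moved both ways, with 2 of 37 higher and 2 lower (5.41% each, below the shares of all genes) and a median of -0.05. Dbf4, the activator of the Cdc7 kinase, rose by 1.04 (limma adjusted p = 0.0481), and Orc5 of the origin recognition complex fell by 0.89 on the log2 scale (limma adjusted p = 0.00472). Dut, which removes dUTP, rose by 0.58, and Mcm10, a fork protein, fell by 0.89 on the log2 scale (limma adjusted p = 0.0286 and 0.0343). Of 18 genes of the Rb, E2F and G1 kinase list, 2 rose (11.1%, near the 10.5% of all genes) and 0 fell. These were the pocket proteins Rb1, at 0.80, and Rbl1, at 0.95 (limma adjusted p = 0.0242 for each), which hold E2F factors in check. Cdk4 and Cdk6, the kinases of the D cyclins, differed by 0.38 and 0.61 (limma adjusted p = 0.0789 and 0.0879).

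The largest difference among all cell cycle genes tested was that of an inhibitor. Cdkn1a, which codes for p21, a brake on cyclin-dependent kinases induced by p53, read 8.64, 8.83 and 8.98 in the knockout and 5.79, 5.41 and 6.62 in WT. It rose by 2.87 (SE 0.28, limma adjusted p = 0.000591), or 7.33-fold, and knockout replicate 3 was here the highest array. Cdkn2d, an inhibitor of Cdk4 and Cdk6, read 6.36, 6.47 and 6.38 against 5.22, 5.19 and 5.38 and rose by 1.14 (SE 0.11, limma adjusted p = 0.000583). Cdkn1b, the p27 inhibitor, differed by 0.50 and Cdkn2c by -0.41 (limma adjusted p = 0.104 and 0.143). In all, 2 of 5 inhibitors tested were higher and 0 lower, against 10.5% and 8.09% of all genes.

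Markers of neutrophils, megakaryocytes and B cells were higher in the knockout livers too. The erythroid and T and NK cell lists, whose genes differed in both directions, had medians near 0 (0.01 and -0.0088). All 6 tested genes of neutrophil precursors rose, among them Prtn3 by 4.53 and Mpo by 3.62, and the summed linear signal of that list was 855 to 1171 in the knockout arrays and 142.1 to 157.2 in WT. Of the mature neutrophil list 7 of 8 rose, with sums of 12850 to 14300 against 430.7 to 572.8. Of 4 megakaryocyte genes 2 rose, Ppbp by 3.73 and Pf4 by 2.65, with sums of 556.2 to 1132 against 179.6 to 239.1. B and plasma cell markers rose in 5 of 7, with sums of 393.6 to 506.8 against 160.1 to 172.6. T and NK cell markers rose in 3 of 7 (42.9%, against 10.5% of all genes), among them Gzma by 2.62 and Nkg7 by 0.97. The other 4 had negative differences and were not called. The erythroid list had 1 higher, Slc4a1 at 1.43, and 1 lower, Car1 at -0.92, of 8.

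Of the liver's own cell types, hepatocyte markers had 0 of 10 higher and 2 lower, with sums of 56160 to 59460 in the knockout and 56800 to 66150 in WT. Kupffer cell and macrophage markers had 3 higher and 3 lower of 9 (33.3% each way), among them Marco at 3.02 and Vsig4 at -2.30. Endothelial markers had 1 higher and 1 lower of 6, stellate cell markers 1 and 2 of 6, and cholangiocyte markers 0 and 0 of 3. Over all genes tested, 10.5% were called higher and 8.09% lower. In knockout replicate 3 the median of the neutrophil precursor list lay 1.49 above the WT mean, against 1.55 and 2.12 in knockout replicates 1 and 2. For megakaryocyte genes it lay 1.08 above, against 1.97 and 1.60, and for B and plasma cell genes 1.51 above, against 1.58 and 1.65. The erythroid median of knockout replicate 3 was -0.126, below the WT arrays (-0.117 to 0.0958), and its T and NK cell median of -0.0693 lay within theirs (-0.143 to 0.156). Which cells carried the transcripts of the members cannot be told from whole liver, and the part of these cell types in the result was not tested.

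**Figure D5:**
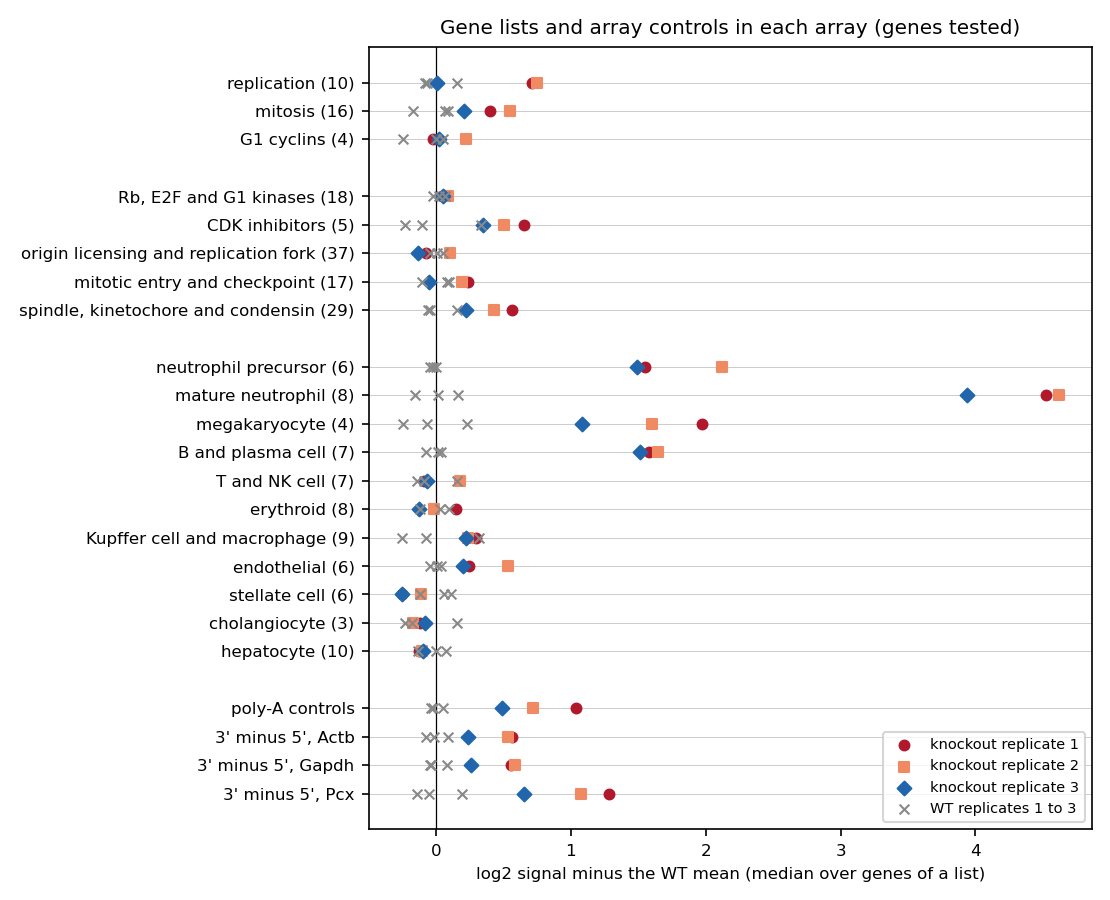
Median over the tested genes of each list of the log2 signal minus the WT mean, 1 point per array (number of genes in brackets), with the poly-A controls and 3′ minus 5′ differences in the bottom rows. Knockout replicate 3 sits at 0.0074 for the replication members but at 1.49 for neutrophil precursors and 3.94 for mature neutrophils.

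How the arrays were brought to a common level changed the counts. Centred on hepatocyte markers, 7 members were called higher, 2 of them replication and 4 mitosis members. On the deposited scale 6 members and 10.5% of all genes were called higher. The 7 are not set here against the share of all genes under the hepatocyte centring. With each array centred on its poly-A controls, 75.7% of all genes were called lower, 2.82% higher, and the median over all genes was -0.80. On that scale the members' median was -0.34. This centring lowers the difference of every gene by the same 0.749, so the members' standing relative to all genes could not change. Mki67 at 1.14 and Top2a at 0.997 were still called higher (limma adjusted p = 4e-05 and 0.000276), and 9 members were called lower. Each array's poly-A offset enters all its genes alike, an error that limma treats as separate in each gene. The SE of Mki67 and Top2a was 0.252 for each on that scale, against 0.222 and 0.326 on the deposited scale. The p-values and counts of calls with poly-A centring are therefore not separate evidence per gene. The sign turned to negative there in 18 of the 30 members, all 6 MCM genes among them, and the calls of Ccnb2, Nusap1 and Ccnd3 were lost. The poly-A controls are added during RNA labelling, and which of the scales is nearer to the amounts in the tissue was not tested.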

How the data were processed

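Per the labels' protocols, TRIzol was used to extract liver RNA from 3 knockout and 3 WT mice, which was biotin-labelled the standard Affymetrix way. The authors deposited 1 log2 value per probe set and array. That the deposited values are log2 was read from their range, which another base would push past a 16-bit scanner. MAS5 is named in the submitters' processing notes with no version or role; how signals were summarized and scaled was not given in the sources used here. A summary that keeps background understates the fold of dim genes.

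Of 45101 probe sets, 34958 had 1 gene symbol, 932 several and 9211 none in the platform annotation, and 34754 of the first were matched by gene identifier to RefSeq. Control probe sets and those with a mean under the 40th percentile (3.58) were left out, which kept 27022. Each gene was read by its brightest remaining probe set with 1 symbol (13370 genes), and limma 3.58.1 in R 4.3.3 (lmFit, eBayes with trend) compared the genotypes over all 6 arrays, with Benjamini-Hochberg adjustment and a threshold of 0.05. A second fit ran on all probe sets kept. The code was checked on simulated data. Motifs were searched in RefSeq promoter windows.

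The members and lists were chosen with earlier results of these data known. Named are all members, Sgpl1, up to 4 genes per list of other cell cycle genes and up to 2 per marker list, by smallest adjusted p. Replicates are different mice, numbered only to name them. Alternatives were other filters, centrings, quantile normalization, array weights, averaging the probe sets of each gene and leaving out each array.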

Additional observations from a re-analysis of the deposited data

Results flagged for a closer look

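The poly-A and 3′ to 5′ controls of the arrays, none of them used in the comparisons, stood higher in all 3 knockout arrays than in all 3 WT arrays. The mean of the bacterial poly-A control probe sets was 0.749 higher on the log2 scale. The difference between 3′ and 5′ probe sets was larger by 0.447 for Actb, by 0.465 for Gapdh and by 1.01 for Pcx, a carboxylase used as a further control. Each has an exact two-sided permutation p of 0.1, the smallest that 3 against 3 arrays can give.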

How the results depend on the processing

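With arrays centred on poly-A controls, 377 genes were called higher and 10120 lower, members 2 and 9, replication 0 and 2, mitosis 2 and 4, and G1 cyclins 0 and 3. The medians became -0.80 for all genes, -0.34 for members, -0.28 for replication, -0.36 for mitosis and -0.68 for G1 cyclins. Signs turned for Mcm2 (-0.34), Mcm3 (-0.022), Mcm4 (-0.16), Mcm5 (-0.079), Mcm6 (-0.25), Mcm7 (-0.39), Pcna (-0.67), Rrm1 (-0.31), Ccna2 (-0.37), Cdk1 (-0.25), Plk1 (-0.33), Aurka (-0.49), Bub1b (-0.53), Prc1 (-0.49), Kif11 (-0.47), Cenpe (-0.34), Ccne1 (-0.64) and Ccnd2 (-0.71). This centring lowers every gene's difference by the same 0.749, so each member with a smaller positive difference on the deposited scale turned negative. Each array's offset is shared by all its genes, so the calls on this scale are not separate evidence per gene. Why the poly-A controls differed between the groups was not tested.

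Centred on hepatocyte markers, 515 genes were called lower, 2 replication and 4 mitosis members higher, Plk1 was no longer called (0.51, limma adjusted p = 0.0622), and the median of all genes was 0.043; centred on array medians that median was -0.015. With a filter at the 60th percentile it was -0.0074, and 1 of 10 replication members was called higher, against 1319 of 10060 genes. With array weights 3 replication members were called higher, a count not set here against the share of all genes. Averaging each gene's probe sets turned Rrm1 to -0.0090 and Cdc20 to 0.34, and quantile normalization turned Ccnd2 to -0.041. Leaving out 1 array at a time gave 784 to 1439 genes called higher and 529 to 944 lower, 2 to 15 members higher, 0 to 8 replication, 2 to 6 mitosis and 0 to 1 G1 cyclins. In these fits Pcna ranged from -0.022 to 0.150 and Ccnd2 from -0.053 to 0.131, each lowest without knockout replicate 2. In the fit per gene, no member's call or sign moved with no filter or no intensity trend. In the fit per probe set, leaving out the filter lost the call of Plk1 (limma adjusted p = 0.0559). It also lost that of the dimmer Mcm2 probe set (limma adjusted p = 0.0582). Dim probe sets and 3 animals per group limit what can be called.

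No paired analysis was possible because the labels number the animals individually and share no replicate number between the groups.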
